A study of Mus musculus with 20 samples.

Results

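The genes examined here are 34 activity-induced immediate early genes, chosen by name from the 55487 gene entries of the count files. They were followed across the hippocampus and the cortex of mice treated with YB-1 or HSP70. Each symbol matched 1 Ensembl identifier, and each gene had reads in all 20 libraries. All animals were NMRI mice, an outbred stock, and all had undergone olfactory bulbectomy, the surgical removal of the olfactory bulbs. From day 14 after the operation they received a protein through the nose once a day for 21 days. One set of animals was given 6.4 µg of recombinant YB-1, a cold shock protein that binds DNA and RNA, and the other 4 µg of human recombinant HSP70, a heat shock chaperone. The 4 groups were hippocampus with YB-1, hippocampus with HSP70, cortex with YB-1 and cortex with HSP70, with 5 libraries each. No library of an unoperated or vehicle-treated mouse was analysed here, so each treatment served only as the comparison for the other. Age, sex and the time from the last dose to the collection of tissue are not stated by the labels. The doses of the proteins also differed in mass.

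Immediate early genes are transcribed within minutes of neuronal firing, without the need for new protein synthesis. Calcium entering through synaptic receptors and channels activates kinases that phosphorylate the transcription factors CREB and SRF with its partners, which are already bound at the promoters of these genes. Many of the products are themselves transcription factors, and others act directly at the synapse or switch the signal off again. In the hippocampus and the cortex Fos, Arc and Egr1 serve as markers of recently active neurons, and their messengers decay quickly, so a tissue sample reflects the period shortly before it was taken.

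The libraries held 7236195 to 10166968 reads assigned to genes in the hippocampus with YB-1 and 7756835 to 13053910 in the hippocampus with HSP70. In the cortex the ranges did not overlap, with 6414215 to 10763465 reads with YB-1 and 12283392 to 15148078 with HSP70, so that depth and treatment cannot be told apart in cortical comparisons. The tissue labels were checked with markers of dentate granule cells, a neuron type of the hippocampus. Their summed level was 172.3 to 296.1 CPM (counts scaled to a common number of assigned reads per library) with YB-1 and 175 to 242.5 CPM with HSP70 in the hippocampus, and 36.8 to 68.6 CPM with YB-1 and 51.4 to 77.2 CPM with HSP70 in the cortex. One cortical library stood apart in markers of striatal projection neurons, YB-1 replicate 4, at a summed 858.4 CPM, where the other cortical libraries with YB-1 began at 293.3 CPM and those with HSP70 lay between 253.2 and 419.3 CPM. Hippocampal and cortical libraries with the same treatment and replicate number deviated together from their group means and are taken below as 1 numbered animal, which the labels do not state.

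Per kilobase of exon, the members spanned a 134-fold range of mean level over the 20 libraries. Nptx2, a secreted pentraxin that gathers AMPA receptors at synapses, had the highest mean at 36.5 CPM per kb (range 20.6 to 68.2). Arc, a capsid-like protein that drives the removal of AMPA receptors from synapses, followed at 33.4 (13.4 to 112), and the zinc-finger transcription factor Egr1 and the AP-1 subunit Junb at 25.3 and 25.0. In all, 10 members averaged at least 10 CPM per kb, 21 lay between 1 and 10, and 3 lay below 1, namely Atf3, Egr2 and Inhba. Fos itself, the founding AP-1 subunit, was only fifteenth in this order, at 4.11 CPM per kb (1.25 to 13.6). Npas4, a transcription factor induced selectively by calcium entry, was at 1.18 (0.0665 to 4.23), with 3 reads in its lowest library. The ranges of neighbours in the order overlapped for all 33 pairs, so the order is not resolved between adjacent genes. Counts are summed over a gene, so the short, activity-induced form of Homer1 could not be separated from its constitutive forms. Exons of Dusp1, Dusp5, Jun, Junb and Zfp36 overlap those of a gene on the other strand in GENCODE M21 (Ergic1, AC137853.2, Junos, Prdx2 and Gm44710, in that order). The strand setting of the counting is not given in the sources used here, so those reads cannot be told apart with certainty.

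The stretches before the transcription start of 7 members are printed here because CREB binds the letters TGACGTCA, the cAMP response element (CRE), or its core TGACG, and because the first 6 of these genes followed Arc closely in the cortex, as described below, while Jun did not. The core was not confined to such genes, since Btg2 and Homer1, which did not follow Arc either, hold it too. These windows were chosen with the correlations known, so they do not test a link between the core and Arc. Arc itself and its close followers Trib1, Ier2 and Egr1 had no window. Egr4 and Dusp5 followed Arc less closely once 2 cortical libraries were left out. Each line gives 250 bases before the start, from RefSeq on GRCm38.p6, 5′ to 3′ on the strand of the gene. Capitals mark the core TGACG or its reverse complement CGTCA. The files themselves use GRCm39, and these coordinates belong only to the sequences.
Fos, chr12:85473640-85473889, plus strand: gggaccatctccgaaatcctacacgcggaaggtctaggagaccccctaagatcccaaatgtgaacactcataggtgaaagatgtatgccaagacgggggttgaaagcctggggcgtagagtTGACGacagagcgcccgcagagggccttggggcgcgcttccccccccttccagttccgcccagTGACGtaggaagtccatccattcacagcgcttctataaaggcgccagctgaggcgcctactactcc
Junb, chr8:84978749-84978998, minus strand: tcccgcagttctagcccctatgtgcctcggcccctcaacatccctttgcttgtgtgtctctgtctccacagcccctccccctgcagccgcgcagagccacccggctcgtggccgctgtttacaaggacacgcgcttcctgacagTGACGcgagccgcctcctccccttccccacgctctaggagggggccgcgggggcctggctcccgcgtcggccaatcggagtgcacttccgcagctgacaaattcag
Nr4a1, chr15:101266596-101266845, plus strand: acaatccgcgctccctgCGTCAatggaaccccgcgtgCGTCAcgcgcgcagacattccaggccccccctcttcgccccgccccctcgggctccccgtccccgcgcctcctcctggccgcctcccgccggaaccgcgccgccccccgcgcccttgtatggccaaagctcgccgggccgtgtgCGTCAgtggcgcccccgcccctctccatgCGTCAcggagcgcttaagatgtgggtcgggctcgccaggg
Egr4, chr6:85513590-85513839, minus strand: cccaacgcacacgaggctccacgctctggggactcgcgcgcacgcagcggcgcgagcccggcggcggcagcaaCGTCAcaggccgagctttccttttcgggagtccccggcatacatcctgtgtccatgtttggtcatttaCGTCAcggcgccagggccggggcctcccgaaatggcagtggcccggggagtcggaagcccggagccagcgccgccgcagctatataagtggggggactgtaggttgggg
Dusp1, chr17:26508473-26508722, minus strand: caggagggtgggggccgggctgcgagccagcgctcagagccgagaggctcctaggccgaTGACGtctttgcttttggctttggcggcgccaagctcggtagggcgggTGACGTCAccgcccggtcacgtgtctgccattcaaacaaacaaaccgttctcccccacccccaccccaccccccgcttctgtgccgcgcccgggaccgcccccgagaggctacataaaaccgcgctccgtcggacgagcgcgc
Dusp5, chr19:53528895-53529144, plus strand: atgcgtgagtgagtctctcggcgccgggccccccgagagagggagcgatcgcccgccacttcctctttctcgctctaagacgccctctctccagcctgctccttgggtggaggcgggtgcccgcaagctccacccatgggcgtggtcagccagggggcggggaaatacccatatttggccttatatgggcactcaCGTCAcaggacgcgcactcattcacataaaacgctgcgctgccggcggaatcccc
Jun, chr4:95052223-95052472, minus strand: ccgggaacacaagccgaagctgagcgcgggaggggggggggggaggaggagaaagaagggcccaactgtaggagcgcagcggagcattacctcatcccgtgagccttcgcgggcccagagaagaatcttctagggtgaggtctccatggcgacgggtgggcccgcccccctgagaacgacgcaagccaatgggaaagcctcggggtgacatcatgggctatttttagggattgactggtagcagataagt
Fos held the core at 129 and 66 bases before the start, Junb at 106, Egr4 at 177 and 109, and Dusp5 at 55. Nr4a1 held it at 4 places, 233, 213, 69 and 40 bases before the start. Dusp1 held 3, of which those at 143 and 140 overlap in 1 full CRE. The Jun window held no exact match to the core, but it holds tgacatca, which differs from the full CRE in 1 letter.

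Of the 34 members 26 had a window in the promoter table, and the core on either strand was found in 18 of these, against 19.8% of the 27025 genes in the table. The full CRE, which contains the core on both strands, stood in Btg2, Dusp1 and Maff, against 1.77% of genes. The CArG box, the letters SRF binds, was found in Dusp5, Egr2 and Zfp36, against 1.62% of genes. TATAAA on either strand was found in 5 members (Ccn1, Fos, Gadd45b, Inhba and Nr4a2), against 14.3% of genes. A gene counts as holding a motif if any of its windows does, and 3 members had several windows. Only the 250 bases before the start were searched, so sites farther out were not seen. The 8 members without a window, Arc and Egr1 among them, were not examined. A match to letters does not show that a factor was bound in these tissues.

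Among the AP-1 subunits, which pair through leucine zippers to bind DNA, Fos and Junb spread more widely between animals in the cortex than in the hippocampus. Fos measured 3.52, 7.06, 4.95, 4.50 and 3.03 CPM in hippocampal libraries 1 to 5 with YB-1, against 8.29, 6.29, 5.16, 4.94 and 2.95 CPM with HSP70. In the cortex it measured 5.01, 32.0, 9.67, 10.1 and 5.87 CPM with YB-1, against 30.0, 18.3, 8.87, 8.21 and 14.4 CPM with HSP70. The treatments overlapped in both tissues, and the highest cortical values came from YB-1 animal 2 and HSP70 animal 1. Junb showed the same animals: in the hippocampus it stood at 44.8, 71.1, 40.5, 53.1 and 40.8 CPM with YB-1, against 53.7, 48.9, 43.4, 29.8 and 56.1 CPM with HSP70. Its cortical values were 45.4, 113, 42.9, 56.9 and 43.1 CPM with YB-1, against 107, 95.9, 58.2, 43.2 and 62.4 CPM with HSP70. Jun went another way, and its lowest cortical values were those of YB-1 animals 2 and 4, at 22.4 and 22.2 CPM, against 46.5 to 51.3 CPM in the other cortical libraries with YB-1 and 38.8 to 42.7 CPM with HSP70.

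Among the effectors that act at the synapse, Arc had the widest cortical spread. Its hippocampal values were 46.9, 125, 50.8, 78.6 and 46.6 CPM with YB-1, against 106, 87.8, 63.9, 62.3 and 91.6 CPM with HSP70. Cortical Arc was at 41.0, 343, 50.3, 70.1 and 47.3 CPM with YB-1, against 199, 240.1, 78.4, 69.7 and 142 CPM with HSP70. One YB-1 animal thus held the highest value of all 20 libraries, while the other 4 lay at 41.0 to 70.1 CPM, in the range of HSP70 animal 4 (69.7 CPM) or below it. Npas4 measured 2.13, 1.56, 2.01, 2.12 and 0.275 CPM in the hippocampus with YB-1, against 6.67, 2.10, 1.86, 1.48 and 2.21 CPM with HSP70. Its cortical level was 2.68, 8.25, 7.45, 5.95 and 3.82 CPM with YB-1, against 17.5, 9.74, 4.02, 5.03 and 10.7 CPM with HSP70. The animal highest in Npas4 was HSP70 animal 1 in both tissues, not YB-1 animal 2.

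**Figure D1:**
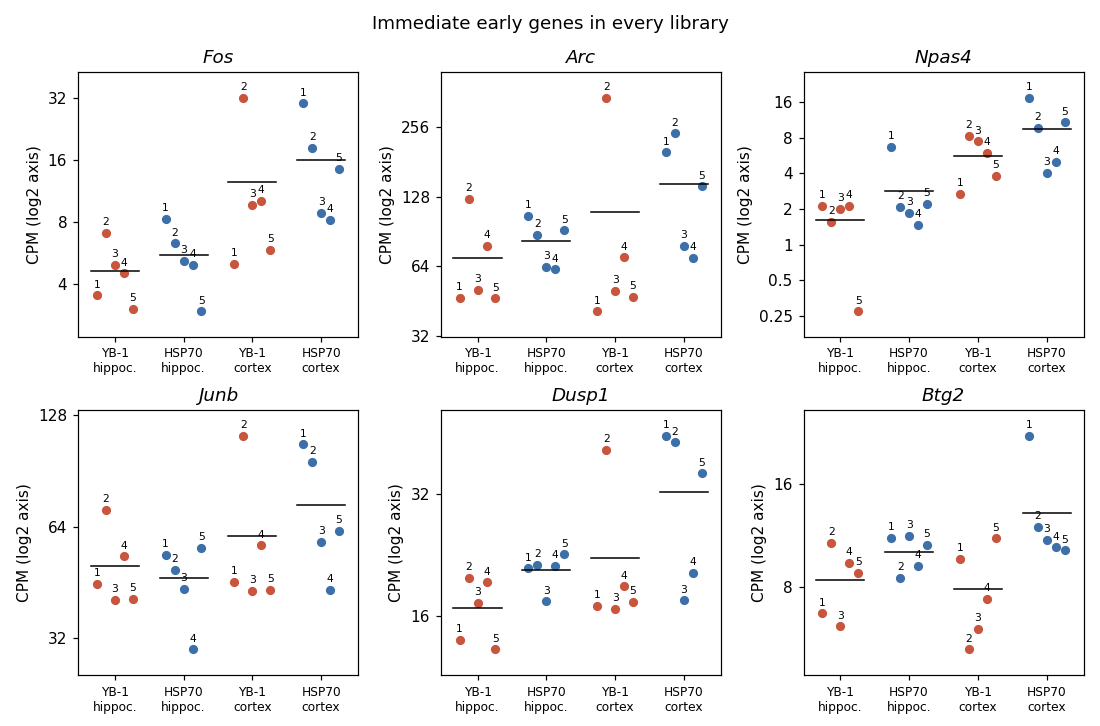
Level of Fos, Arc, Npas4, Junb, Dusp1 and Btg2 in every library, in CPM on a log2 axis, for hippocampus and cortex with YB-1 (red) and HSP70 (blue); numbers are replicate numbers and lines are means of 5 libraries. Cortical Arc reaches 343 CPM in YB-1 animal 2, and the treatments overlap in every panel.

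The genes that end the response behaved unlike each other. Dusp1, a phosphatase that inactivates MAP kinases, measured 14.0, 19.9, 17.2, 19.3 and 13.2 CPM in the hippocampus with YB-1, against 21.0, 21.4, 17.3, 21.2 and 22.7 CPM with HSP70. Cortical Dusp1 was at 16.9, 41.2, 16.6, 18.9 and 17.3 CPM with YB-1, against 44.6, 43.0, 17.5, 20.4 and 36.0 CPM with HSP70, with the same animals high as for Arc. Btg2, an antiproliferative cofactor that promotes messenger decay, did not follow them. It was at 6.72, 10.8, 6.15, 9.41 and 8.80 CPM in the hippocampus with YB-1, against 11.2, 8.50, 11.3, 9.22 and 10.6 CPM with HSP70. Cortical Btg2 was at 9.66, 5.27, 6.04, 7.39 and 11.1 CPM with YB-1, against 22.0, 12, 11.0, 10.5 and 10.2 CPM with HSP70. Here YB-1 animal 2 held the lowest value, although HSP70 animal 1 held the highest.

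Spread within groups was compared over genes with a group mean of at least 5 CPM. In the cortex with YB-1 the median coefficient of variation was 38.5% over 27 members, against 20.9% over 10502 genes. With HSP70 the cortical figures were 25.7% over 29 members and 17.4% over all genes. In the hippocampus the members were at 23.0% with YB-1 and 22.7% with HSP70, beside 18.5% and 20.7% over all genes. Cortical library 2 of the YB-1 group was the highest of its group for 18 of 34 members, against 19.8% of all genes tested, and HSP70 library 1 for 20 of 34, against 34.9% of genes. In the hippocampus YB-1 library 2 was highest for 13 of 32 members and HSP70 library 1 for 12 of 32, against 21.6% and 23.6% of genes.

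**Figure D2:**
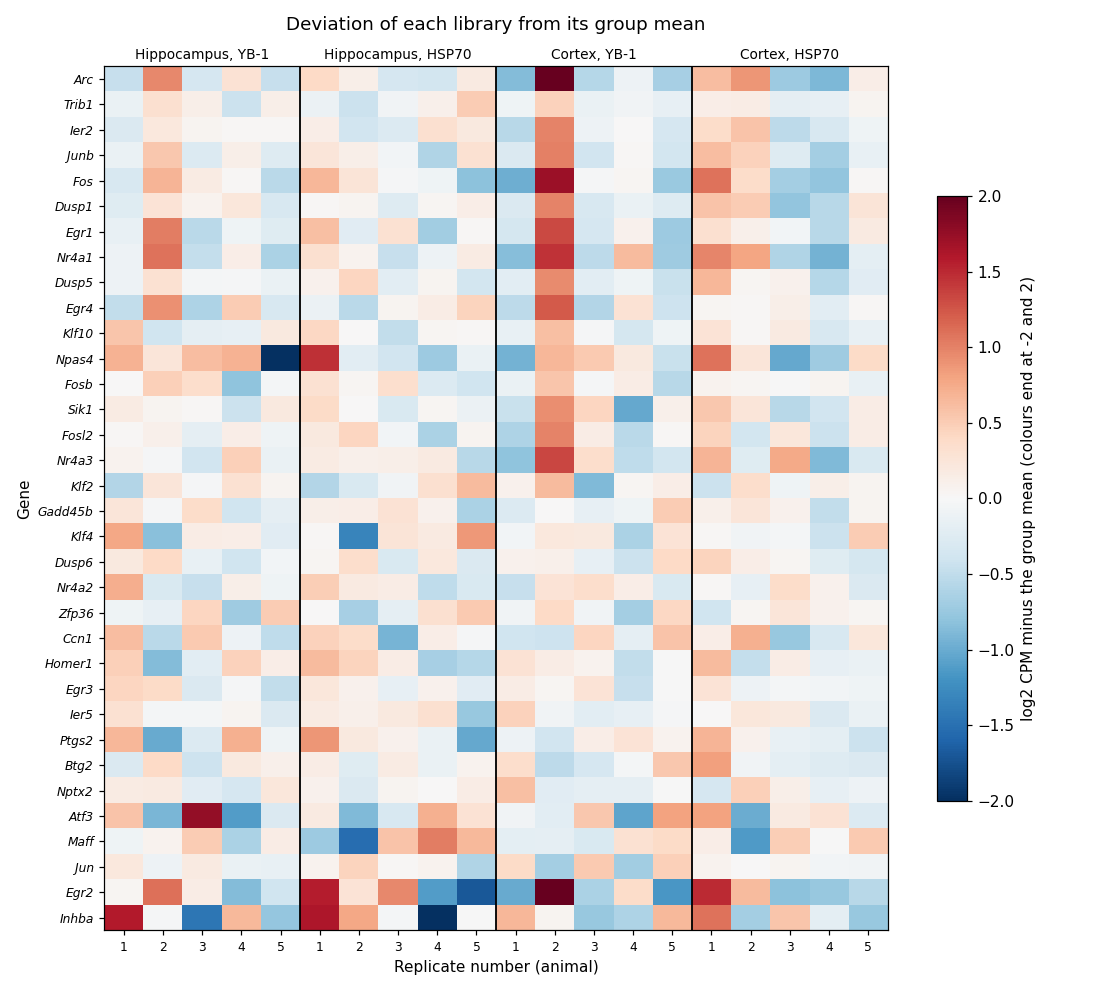
Deviation of each of the 34 genes (rows, ordered by their cortical correlation with Arc, with Egr2 and Inhba, which have none, last) from its group mean in each of the 20 libraries (columns), in log2 CPM. In the cortex, the upper rows are mostly red in YB-1 animal 2 and in HSP70 animals 1 and 2. Rows from Klf2 down are mixed, and several of them are red in HSP70 animal 1, among them Btg2 (22.0 CPM), Homer1 (51.3 CPM) and Egr2 (8.10 CPM).

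Across the 10 cortical libraries, with group means removed and log2 CPM (prior count 2) as the measure, Trib1, Ier2, Junb, Fos, Dusp1, Egr1, Nr4a1, Dusp5 and Egr4 followed Arc with Pearson's r of at least 0.8. These were 9 of 31 members, against 0.223% of the 13482 other genes tested. Ier2, a nuclear protein of the early response, had r = 0.97 and Spearman's rho = 0.92 (exact permutation of animals within treatment, p = 0.000208 and 0.000903). Nr4a1, an orphan nuclear receptor, had r = 0.92 and rho = 0.96 (exact permutation p = 0.000278 and 0.000139). Fos had r = 0.94 and rho = 0.95 (exact permutation p = 0.00132 and 0.000139). None passed after Benjamini-Hochberg adjustment over all genes (0% of genes called), with a smallest adjusted p of 0.999 for r over the members. Without adjustment 10 of 31 members had an exact permutation p under 0.05, all with positive r, against 2.89% of genes. With the libraries farthest from the median of Arc left out, YB-1 replicate 2 and HSP70 replicate 2, r was 0.90 for Ier2, 0.92 for Nr4a1, 0.93 for Fos, 0.89 for Junb, 0.92 for Dusp1, 0.90 for Trib1 and 0.81 for Egr1, but 0.70 for Dusp5 and 0.47 for Egr4. The exact permutation p over the 8 libraries left was 0.12 for Egr4, whose r had been 0.84, and 0.182 for Dusp5, also at 0.84 before. For Trib1 it was 0.0608 at an r of 0.90. Arc was chosen for this after its values were seen.

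Several other members did not follow Arc there. Egr3, Homer1, Ier5 and Ptgs2 had r between -0.06 and 0.02, Btg2 and Nptx2 -0.22 each, and Jun -0.62 (rho -0.37, exact permutation p = 0.0805 for r). All 6 of the 9 close followers that had a promoter window held the CRE core, and so did 12 of 20 other members with a window. Among these others were Npas4 (r = 0.70) as well as Btg2 and Homer1. In the hippocampus Nr4a1 (r = 0.93, rho = 0.89, exact permutation p = 0.00132 and 0.00333) and Junb (r = 0.88, rho = 0.87, exact permutation p = 0.00153 and 0.00292) followed Arc, while Trib1 (0.10) and Ier2 (0.32) did not reach their cortical values. There 5 of 31 members had an unadjusted exact permutation p under 0.05, against 2.12% of genes, and none passed adjustment (0% of genes; smallest adjusted p over members 0.99). Leaving out YB-1 replicate 2 and HSP70 replicate 1, the farthest from the median of hippocampal Arc, gave r = 0.77 for Nr4a1 and 0.78 for Junb, but 0.25 for Egr1, which had been at 0.77 and so rests on those libraries. Over all 496 pairs of 32 members the median r was 0.0857 in the hippocampus and 0.195 in the cortex, against 0.00418 and 0.00156 over all pairs of genes. Pairs at 0.8 or more made up 1.61% of member pairs in the hippocampus, below the 2.48% of all pairs, and 9.07% in the cortex, against 3.07%. The points of each such relation share their library and its depth.

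The 10 animals were then compared between their own hippocampus and cortex. Arc had r = 0.93 and rho = 0.81 over the 10 animals (exact permutation within treatment, p = 0.00264 and 0.00243), and the 4 animals highest in Arc were the same in both tissues, YB-1 animal 2 and HSP70 animals 1, 2 and 5. Junb (r = 0.86, rho = 0.92), Egr1 (0.86, 0.81), Egr4 (0.83, 0.73), Nr4a1 (0.81, 0.75), Ptgs2 (0.79, 0.76), Fos (0.73, 0.76) and Dusp1 (0.60, 0.50) also had an unadjusted exact permutation p under 0.05 for r (0.00438 to 0.0354, with 0.00229 to 0.131 for rho). These were 8 of 32 members (25%), against 9.75% of 13483 genes. No gene passed adjustment over all genes (0%), and the smallest adjusted p of a member was 0.299, for Arc. Without the 2 animals farthest from the median in the hippocampus r was 0.80 for Arc (exact permutation p = 0.0243) and 0.92 for Fos (p = 0.0122). It was then 0.49 for Junb, 0.55 for Egr1, 0.61 for Egr4, 0.68 for Nr4a1, 0.60 for Ptgs2 and 0.47 for Dusp1, positive in each, with exact permutation p of 0.0931 to 0.347 over the 8 animals left. Leaving out single animals gave r between 0.83 and 0.97 for Arc, the lowest without YB-1 animal 2. Nptx2, Btg2, Klf4 and Homer1 had r between -0.02 and 0.09. The median r was 0.365 over the members and 0.246 over all genes.

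**Figure D3:**
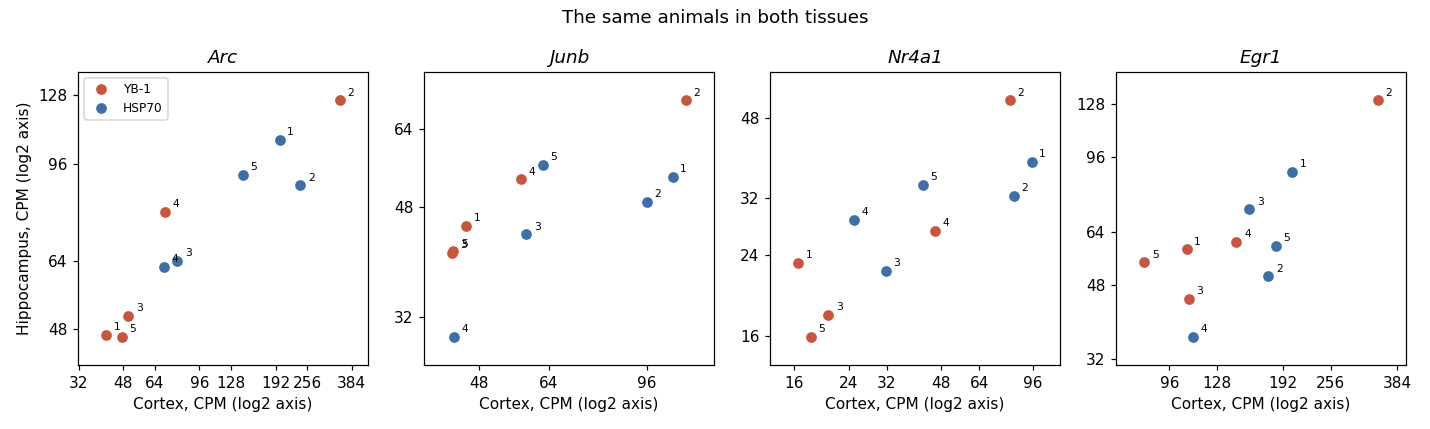
Level of Arc, Junb, Nr4a1 and Egr1 in the hippocampus (vertical) against the cortex (horizontal) of the 10 animals, in CPM on log2 axes, with YB-1 in red and HSP70 in blue; numbers are animals. For Arc the correlation is 0.93, and YB-1 animal 2 has the highest hippocampal value in each panel.

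Cortical and hippocampal Arc were set against depth and against the summed level of each marker and pathway list, 32 relations in all. None passed adjustment over the 32 by a two-sided exact permutation test within treatment, with a smallest adjusted p of 0.834 for Pearson's r and 0.531 for Spearman's rho. The largest r was with haemoglobin and other blood genes in the cortex, 0.69 (rho 0.58, unadjusted exact permutation p = 0.0424 and 0.116). The largest rho was with astrocyte markers in the cortex, -0.67 (r = -0.39, unadjusted exact permutation p = 0.0219 and 0.336 for rho and r). With assigned reads cortical Arc had r = -0.47 and rho = -0.61 (unadjusted exact permutation p = 0.288 and 0.0671). The part of these measures in the result was not tested.

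Between the tissues, most of the immediate early genes that passed the test were lower in the hippocampus than in the cortex. Of 34 members 14 passed edgeR's quasi-likelihood test with Benjamini-Hochberg adjustment over 14616 genes, 4 higher and 10 lower in the hippocampus, against 8.55% of genes higher and 7.32% lower. The median log2 fold change was -0.42 over the members and 0.0006 over all genes. In bulk tissue, fewer cells of a type and less RNA per cell cannot be told apart. With the animal as a block 20 members passed, 4 higher and 16 lower, the same 14 among them, against 9.98% of genes higher and 9.78% lower in that fit. In 12 members every one of the 10 animals differed in the same direction, 2 higher and 10 lower, against 9.4% of genes.

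All 4 members of the EGR family, zinc-finger factors that bind GC-rich sites, had lower estimates in the hippocampus. Egr1 averaged 65.5 ± 27.2 CPM in the hippocampus and 161 ± 74.1 CPM in the cortex (SD, n = 10 each), a log2 fold change of -1.28 ± 0.26 (SE; adjusted p = 0.00147). Egr2, which is best known from the hindbrain and Schwann cells, was at 0.736 ± 0.469 and 2.83 ± 2.69 CPM in hippocampus and cortex (-1.84 ± 0.49, adjusted p = 0.00968), and without cortical YB-1 replicate 2 it no longer passed (-1.23, adjusted p = 0.0532). Egr3 was at 40.8 ± 8.26 CPM in the hippocampus and 61.1 ± 10.4 CPM in the cortex (-0.56 ± 0.12, adjusted p = 0.000973). Egr4 missed the threshold with 4 group means (-0.63 ± 0.23, adjusted p = 0.0658) and passed with the animal as a block (-0.62, adjusted p = 0.000144), being lower in the hippocampus of 10 of 10 animals.

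The AP-1 family was divided. Fos averaged 5.07 ± 1.74 CPM in the hippocampus and 14.2 ± 9.66 CPM in the cortex (SD, n = 10 each; log2 fold change -1.46 ± 0.32, adjusted p = 0.0022). Fosb, whose spliced product accumulates with repeated activity, was lower as well, at 11.3 ± 2.85 CPM in the hippocampus and 18.4 ± 3.83 CPM in the cortex (-0.68 ± 0.15, adjusted p = 0.00205). Jun was higher in the hippocampus, at 64.3 ± 12 CPM against 39.6 ± 10 CPM in the cortex (0.71 ± 0.14, adjusted p = 0.000889), and higher in 10 of 10 animals. Fosl2, a Fos relative of slower induction, was at 23.0 ± 4.13 CPM in the hippocampus and 14.2 ± 5.39 CPM in the cortex (0.71 ± 0.18, adjusted p = 0.00532). Fos and Jun, which form the classical AP-1 dimer, thus lay on opposite sides in all 10 animals. Junb passed with the animal as a block only (-0.39 in that fit, adjusted p = 0.00593). Atf3 and the small Maf protein Maff did not pass (0.44 ± 0.34 and 0.14 ± 0.27).

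Among the nuclear receptors, Nr4a3 stood higher in the hippocampus, at 20.3 ± 4.30 CPM against 7.75 ± 4.25 CPM in the cortex (log2 fold change 1.40 ± 0.24, adjusted p = 0.000128), in 10 of 10 animals. Its relatives Nr4a1 and Nr4a2 had estimates of -0.60 ± 0.33 and -0.39 ± 0.16 and did not pass with 4 group means, and Nr4a1 passed with the animal as a block (-0.45, adjusted p = 0.0289). Npas4 averaged 2.24 ± 1.66 CPM in the hippocampus and 7.52 ± 4.38 CPM in the cortex (-1.74 ± 0.34, adjusted p = 0.000699), lower in 10 of 10 animals. The Krüppel-like factors Klf2, Klf4 and Klf10, zinc-finger proteins that bind GC-rich DNA, did not pass, at -0.19 ± 0.17, -0.57 ± 0.23 and 0.01 ± 0.15.

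Of the effectors, Nptx2 had the smallest p among the members. It measured 74.3, 74.4, 56.3, 52.2 and 77.2 CPM with YB-1 and 69.6, 53.8, 68.7, 66.1 and 72.7 CPM with HSP70 in the hippocampus. Cortical Nptx2 was at 173, 97.9, 101, 102 and 114 CPM with YB-1 and 93.0, 164, 127, 105 and 109.9 CPM with HSP70. Every hippocampal library lay below every cortical one, with a log2 fold change of -0.82 ± 0.12 (adjusted p = 1.8e-05). The ranges of the tissues were separate for 2 of 34 members, and the share over all genes was not counted. Homer1, a scaffold of the postsynaptic density whose short form is the induced one, was at 14.7 ± 5.01 CPM in the hippocampus and 30.2 ± 8.89 CPM in the cortex (-1.01 ± 0.19, adjusted p = 0.000291). Arc and Inhba, an activin subunit, passed only with the animal as a block (-0.44, adjusted p = 0.0473, and -1.03, adjusted p = 0.038), where Arc had been at -0.73 ± 0.39 without it. Ptgs2, the inducible cyclooxygenase, and Ccn1, a matricellular protein, did not pass (0.19 ± 0.23 and -0.18 ± 0.22).

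Of the genes that limit or relay the response, Ier5 was the other member with every hippocampal library below every cortical one. It measured 45.6, 36.0, 36.0, 38.5 and 30.2 CPM with YB-1 and 34.6, 33.3, 35.4, 38.6 and 18.3 CPM with HSP70 in the hippocampus. In the cortex it measured 75.0, 52.3, 47.0, 49.0 and 53.9 CPM with YB-1 and 63.3, 74.0, 72.3, 51.8 and 57.8 CPM with HSP70. The log2 fold change was -0.77 ± 0.12 (adjusted p = 4.16e-05). Ier2 was lower in the hippocampus too, at 7.86 ± 1.52 CPM against 12.7 ± 4.90 CPM in the cortex (-0.67 ± 0.18, adjusted p = 0.0117), and Dusp5, a nuclear phosphatase of ERK, was higher, at 11.6 ± 2.01 CPM against 7.44 ± 2.80 CPM in the cortex (0.66 ± 0.18, adjusted p = 0.0102). Dusp1 passed with the animal as a block (-0.43, adjusted p = 0.0244), while Dusp6, Btg2, Sik1, the pseudokinase Trib1, Zfp36, which promotes the decay of AU-rich messengers, and the stress-response gene Gadd45b passed in neither fit. Ier5, a relative of Ier2, is a nuclear protein of the same early response.

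Marker lists moved between the tissues as well. Of the dentate granule markers 5 of 7 tested were higher in the hippocampus, of the oligodendrocyte markers 6 of 6 were, and 3 of 8 interneuron markers were lower. The oligodendrocyte markers summed to 3660 to 4991 CPM with YB-1 and 3674 to 6889 CPM with HSP70 in the hippocampus, and to 1795 to 2453 CPM with YB-1 and 1381 to 2289 CPM with HSP70 in the cortex. The interneuron markers summed to 414.2 to 569.9 CPM with YB-1 and 482.7 to 657.2 CPM with HSP70 in the hippocampus, and to 530.8 to 634.8 CPM with YB-1 and 743.2 to 930.2 CPM with HSP70 in the cortex. No gene of these lists was at 0 in a whole group, and their part in the tissue difference was not tested. Within the YB-1 libraries alone 4 members passed between the tissues, Nptx2, Nr4a3, Npas4 and Ier5, against 5.66% of genes. Within the HSP70 libraries alone 13 did, against 8.01% of genes. The estimates of members that lost their call in the YB-1 libraries were close to those over all libraries for Fos (-1.45 beside -1.46), Egr1 (-1.18 beside -1.28) and Jun (0.71 beside 0.71).

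**Figure D4:**
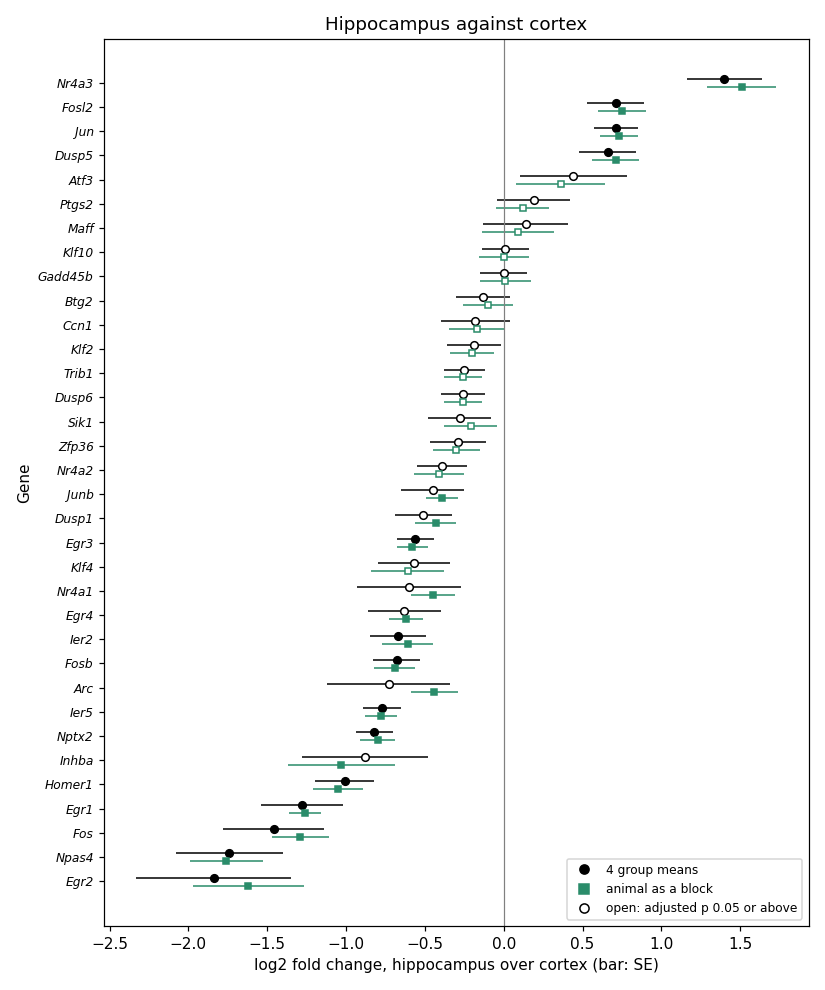
Log2 fold change of hippocampus over cortex for the 34 genes with its standard error, from the fit of 4 group means (black circles) and with the animal as a block (green squares); filled symbols have an adjusted p under 0.05. Nr4a3, Fosl2, Jun and Dusp5 lie to the right of 0 in both fits and Egr2, Npas4, Fos and Egr1 farthest to the left.

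Between YB-1 and HSP70 no member passed in the hippocampus. Of 32 members tested (Egr2 and Inhba had too few reads) 13 had positive and 19 negative log2 fold changes, with a median of -0.03, against -0.003 over all 13723 genes tested. edgeR's quasi-likelihood test called 0 genes (0%) at an adjusted p under 0.05, and without adjustment 329 genes (2.4%) and 0 members had a p under 0.05; DESeq2 and limma-voom called 0 genes as well. No member's groups were free of overlap, against 0.481% of genes. The smallest p belonged to Sik1, a salt-inducible kinase that restrains CREB's coactivators, at 5.01, 4.67, 4.55, 3.31 and 5.13 CPM with YB-1, against 8.10, 6.29, 5.06, 6.41 and 5.75 CPM with HSP70. The groups overlapped at 1 library, and the log2 fold change was -0.47 ± 0.23 (SE; adjusted p = 1). Dusp1, whose values are given above, was at -0.30 ± 0.16. Next by p came Klf10 (-0.37 ± 0.23), Npas4 (-0.83 ± 0.53), Klf4 (-0.64 ± 0.40), Gadd45b (0.33 ± 0.23), Ier2 (-0.27 ± 0.21), Btg2 (-0.26 ± 0.21), Ier5 (0.23 ± 0.18), Ccn1 (-0.38 ± 0.31) and Nr4a3 (0.20 ± 0.19), all with an adjusted p of 1, which does not show that the treatments act alike. The sign for Nr4a3 depended on the processing, at -0.01 with limma-voom. Without YB-1 replicate 2 the median over the members was -0.11. Meningeal markers moved with this comparison, with 0 of 8 positive, none called, and summed levels of 631.5 to 1228 CPM with YB-1 and 975.7 to 2059 CPM with HSP70. Dentate granule markers were positive for 7 of 7, at a summed 172.3 to 296.1 CPM with YB-1 and 175 to 242.5 CPM with HSP70, and endothelial markers for 8 of 8, none called, at a summed 223.8 to 252.4 CPM with YB-1 and 178.4 to 224.1 CPM with HSP70. Oligodendrocyte markers were positive for 0 of 6, blood genes for 0 of 4 tested and microglia markers for 7 of 8, none called. The part of these lists in the result was not tested.

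In the cortex no member passed either. The estimates were negative for 25 of 34 members, with a median log2 fold change of -0.18 against 0.005 over all 14114 genes tested, and 0 genes (0%) were called. Without adjustment 3 members had a p under 0.05, against 774 genes (5.48%). DESeq2 called 4 genes and limma-voom 1, none of them a member, and no member's groups were free of overlap, against 0.886% of genes. With every library thinned to the smallest one, which evens out read numbers only, 22 of 33 members were negative with a median of -0.17. The part of other differences between libraries that go with depth was not tested.

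Btg2, with its values above, had the smallest p there, at 7.89 ± 2.44 CPM with YB-1 and 13.1 ± 5.02 CPM with HSP70 (SD, n = 5 each; log2 fold change -0.70 ± 0.26, adjusted p = 0.858). Ccn1 followed at 3.58, 3.51, 6.34, 4.15 and 6.99 CPM with YB-1, against 8.73, 13, 4.71, 6.35 and 9.28 CPM with HSP70 (-0.74 ± 0.29, adjusted p = 0.858). The groups overlapped through YB-1 libraries 3 and 5 and HSP70 libraries 3 and 4. Dusp6, a cytoplasmic phosphatase of ERK, was at -0.41 ± 0.19. Next by p came Npas4 (-0.73 ± 0.39), Homer1 (-0.36 ± 0.20), Egr3 (-0.25 ± 0.14), Maff (0.56 ± 0.32), Dusp1 (-0.52 ± 0.32), Atf3 (0.56 ± 0.40), Trib1 (-0.21 ± 0.17), Ptgs2 (-0.29 ± 0.25) and Ier5 (-0.18 ± 0.15). Egr2 (-0.82 ± 0.73), Zfp36 (0.23 ± 0.22) and Nr4a1 (-0.59 ± 0.58) were the last with an estimate beyond its SE. With every library thinned to the smallest one, Maff stood at 0.14 rather than 0.56 and Npas4 at -0.57 rather than -0.73. Ccn1 stayed at -0.74 in that fit, and Atf3 was not tested. No member had an adjusted p below 0.858.

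A single animal moved these figures. Without cortical YB-1 replicate 2 the median over the members was -0.37, and 11 of 34 had an unadjusted p under 0.05, against 4.86% of genes, although none passed adjustment (smallest adjusted p over members 0.951). Arc then stood at -1.46 ± 0.38 rather than -0.37 ± 0.71, Fos at -1.05 ± 0.37 rather than -0.34 ± 0.57, Egr1 at -0.56 ± 0.19 rather than -0.05 ± 0.36, and Egr2 at -2.04 ± 0.56 rather than -0.82 ± 0.73. Without cortical HSP70 replicate 1, in which 20 members were highest, the median was -0.09 and 1 member had an unadjusted p under 0.05. Btg2 then stood at -0.43 rather than -0.70, Npas4 at -0.38 rather than -0.73 and Homer1 at -0.18 rather than -0.36, while Ccn1 was at -0.72 rather than -0.74. Without YB-1 replicate 1 the number of members at an unadjusted p under 0.05 was also 1, with a median of -0.11. Interneuron markers moved with this comparison, with 0 of 8 positive and none of the 8 at 0. Their summed levels did not overlap (530.8 to 634.8 CPM with YB-1 and 743.2 to 930.2 CPM with HSP70). Blood genes were positive for 0 of 4 tested, at a summed 143.2 to 664.1 CPM with YB-1 and 147.7 to 887.2 CPM with HSP70. Microglia markers were positive for 7 of 8, at a summed 1156 to 2206 CPM with YB-1 and 1070 to 1561 CPM with HSP70. None of these genes was called, and the part of these lists was not tested. Without YB-1 replicate 4, the library with the striatal markers, the median was -0.14 and 21 of 34 members were negative.

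**Figure D5:**
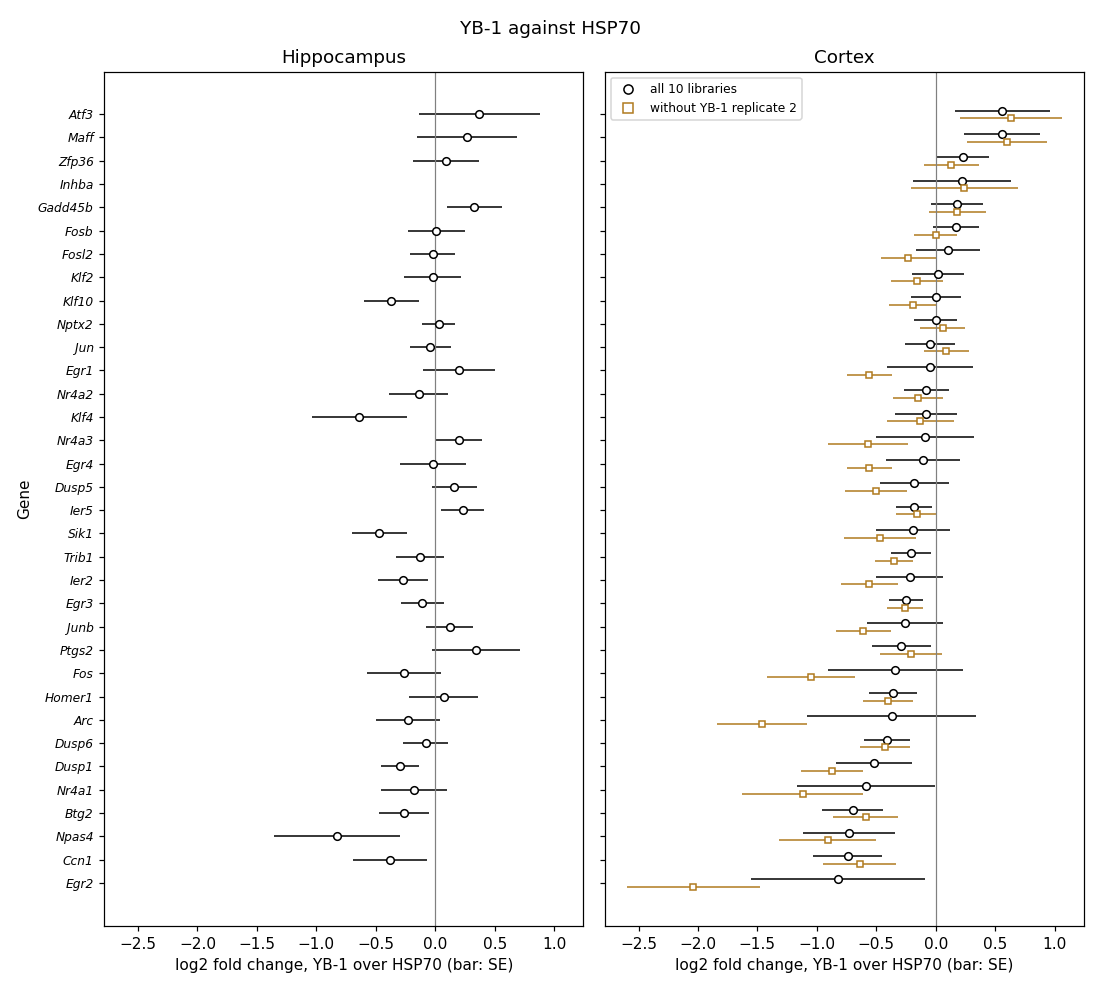
Log2 fold change of YB-1 over HSP70 with its standard error for each gene in the hippocampus (left, 32 genes) and the cortex (right, 34 genes), with the cortical values without YB-1 replicate 2 as brown squares. All symbols are open because none has an adjusted p under 0.05, and without that library the cortical values of Arc, Fos, Egr1 and Egr2 lie at -1.46, -1.05, -0.56 and -2.04.

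Whether the treatments differed otherwise in the hippocampus than in the cortex was tested with the interaction. It called 0 of 14616 genes (0%), and without adjustment 227 genes (1.55%) and 0 members had a p under 0.05; DESeq2 and limma-voom also called 0 genes. The difference, hippocampus minus cortex, was positive for 22 of 34 members, with a median of 0.12 against -0.0094 over all genes. The smallest p belonged to Ier5 (0.40 ± 0.24) and Ptgs2 (0.62 ± 0.45), both with an adjusted p of 1. The hippocampal values of Ptgs2 were 9.49, 2.99, 4.95, 9.80 and 5.68 CPM with YB-1, against 8.86, 5.47, 5.06, 4.35 and 2.36 CPM with HSP70. In the cortex they were 4.29, 3.51, 5.03, 5.59 and 4.85 CPM with YB-1, against 8.94, 5.91, 5.05, 4.88 and 4.17 CPM with HSP70, so the treatments overlapped in both tissues. With the animal as a block 409 genes and 2 members had an unadjusted p under 0.05. The other members with an estimate beyond its SE were Btg2 (0.43 ± 0.34), Klf10 (-0.37 ± 0.31), Klf4 (-0.55 ± 0.47), Dusp6 (0.32 ± 0.27), Homer1 (0.43 ± 0.37) and Egr2 (1.07 ± 0.98).

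The genes upstream and downstream of the response were taken as lists of 20 and 18. Of the upstream kinases and transcription factors, 5 of 20 passed as lower in the hippocampus than in the cortex and 0 as higher. Camkk2, which activates the CaM kinases, was at -1.24 ± 0.08, its target Camk4, a kinase of CREB, at -0.90 ± 0.14, and Mef2c, an activity-regulated transcription factor, at -2.09 ± 0.16 (adjusted p at most 4.61e-05). The list's median was -0.12. Of the later activity-regulated genes 5 of 18 were lower and 0 higher, with a median of -0.15. They included the stress peptide gene Crh at -1.85 ± 0.26, the G-protein regulator Rgs4 at -0.70 ± 0.11 and the synaptic vesicle gene Syt4 at -0.70 ± 0.14 (adjusted p at most 0.000869).

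Between the treatments 0 genes of either list passed in either tissue or in the interaction. In the hippocampus the upstream list had 11 of 20 positive estimates and the later genes 6 of 18, where the smallest p belonged to Pim1, a kinase, at 1.30 ± 0.50 (adjusted p = 1). In the cortex the later genes had 3 positive and 15 negative estimates with a median of -0.21, among them Nrn1, a surface protein that promotes neurite growth (-0.42 ± 0.15), the GTPase Rheb (-0.45 ± 0.16) and Syt4 (-0.35 ± 0.16), each with an adjusted p of 0.858. Upstream, 10 of 20 were positive, and Elk4, a partner of SRF, had the smallest p (-0.55 ± 0.21, adjusted p = 0.858). Of 12 glucocorticoid-induced genes, which share Per1 with the later genes, 3 were higher in the hippocampus than in the cortex and 1 lower (Sgk1 0.72 ± 0.13, Fkbp5 0.48 ± 0.11 and Errfi1 0.52 ± 0.12, adjusted p at most 0.00231). Between treatments 0 passed. In the cortex 6 of the 12 were positive and 6 negative, with a median of 0.07. Tsc22d3 was at -0.55 ± 0.18, Sgk1 at -0.31 ± 0.14 and Map3k6 at 0.67 ± 0.33 there (adjusted p = 0.858 each).

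The non-members whose deviations from the group means were most like the mean of the 28 members with at least 5 CPM in both tissues were ranked by the lower of their correlations in hippocampus and cortex, each over 10 libraries, among 10250 genes. They were Tro (0.76), Nudt19 (0.74), Saraf (0.70), Rsrp1 (0.70), Tox (0.70), Clp1 (0.64), Hspd1 (0.64), Ythdc1 (0.64), Las1l (0.63) and Il1rap (0.61). These values describe shared variation between libraries, which also share depth, and carry no test.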

How the data were processed

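Counts per Ensembl gene were deposited by the authors, 1 file per library. The submitters' processing notes name STAR, featureCounts and Trimmomatic, with the build GRCm39, but no version; the annotation release and strand setting were not found in the labels. Per the labels, poly(A) RNA and a directional kit were used. The 12 summary entries that name no gene were left out of library sizes. Of the reads that were assigned, in no gene or ambiguous, 2.45% to 4.58% fell in no gene and 4.12% to 4.58% were ambiguous. Symbols and exon lengths came from GENCODE M21, which gave 99.4% of identifiers a symbol.

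The members and gene lists were chosen with earlier results of these data known. Treatments were compared within each tissue with edgeR 4.0.16 in R 4.3.3 (TMM, filterByExpr, robust quasi-likelihood F-test, two-sided, Benjamini-Hochberg over all genes tested, threshold 0.05), and tissues and the interaction in a model of 4 group means. Alternatives included DESeq2 1.42.0, limma 3.58.1 (voom with quality weights), other scaling, no filter, thinning to 6414215 reads, the replicate block and leaving out each library. The fits were tested on simulated data. The labels call the libraries of a group separate samples without naming the animal, and single-gene p-values measure the spread between these libraries. Named were the members that passed or, between treatments, had an estimate beyond its SE; the correlations with Arc were added after the values were seen. CPM are TMM-scaled.

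Same-numbered hippocampal and cortical libraries were correlated over 13483 genes. All 10 pairs exceeded 0.1 (0.167 to 0.679), and the own number was the best match in 4 of 5 YB-1 and 5 of 5 HSP70 animals. The margin was narrow for HSP70 numbers 2 (0.233 beside 0.226), 4 (0.195 beside 0.192) and 5 (0.271 beside 0.253). YB-1 number 1 matched another number better (0.395 beside 0.205). On this basis the numbers were taken to pair the tissues, which is not certain. They were not taken to pair the treatments (hippocampal r from -0.31 to 0.539, cortical r from -0.164 to 0.217). The permutation within treatment has 14400 pairings and a smallest possible p of 6.9e-05.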

Additional observations from a re-analysis of the deposited data

Results flagged for a closer look

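A library was noted where it lay apart from the other 4 of its group by more than 0.71 of the group's range, Dixon's limit for 5 values. Among the members this held in 20 of 136 groups of a gene, tissue and treatment, and the share over all genes was not counted. Chance gives about 1 in 20 for independent, normally distributed values. The rule was applied to CPM without a log transform, and the groups of 1 tissue share their libraries. The 20 of 136 therefore cannot be read as an excess, or as particular to these genes. In cortical YB-1 replicate 2 it held for Arc (343 CPM), Egr1 (341), Junb (113), Dusp1 (41.2), Fos (32.0), Trib1 (25.3), Ier2 (21.5), Klf10 (14.7), Dusp5 (12.6) and Egr2 (6.76), each above the other 4, whose highest values were 70.1 CPM for Arc and 144 CPM for Egr1. The hippocampal library of the same animal stood above its group for Egr1 (131 CPM) and Dusp5 (15.1).

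HSP70 animal 1 was above its group for Egr3 (80.6 CPM) and Btg2 (22.0) in the cortex and for Npas4 (6.67) in the hippocampus. Cortical YB-1 replicate 1 was above its group for Nptx2 (173 CPM) and Ier5 (75.0). Hippocampal HSP70 replicate 5 was below its group for Ier5 (18.3 CPM), Nr4a3 (12.7) and Gadd45b (3.84).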

How the results depend on the processing

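Between YB-1 and HSP70 in the cortex 9 genes were called with no filter on low counts, 4 with DESeq2, 1 with limma-voom and 0 to 1 when single libraries were left out (1 without HSP70 replicate 3), against 0 in the reported fit, and none was a member. In the hippocampus and in the interaction 0 genes were called under every alternative run. The hippocampal estimate of Nr4a3 changed sign, to -0.01, with limma-voom, and the cause was not tested. Between hippocampus and cortex 775 genes were called in the YB-1 libraries alone and 1146 in the HSP70 libraries alone, and members called numbered 4 in the YB-1 and 13 in the HSP70 libraries, with 5 libraries per tissue in each; the cause was not tested. Leaving out single libraries gave 13 to 17 members and 2080 to 2437 genes. Of the alternative tissue estimates for the 14 members called, 391 kept their call and 13 did not; apart from the subsets by treatment, Egr2 lost it with limma-voom (-1.07, adjusted p = 0.1) and without cortical YB-1 replicate 2 (-1.23, adjusted p = 0.0532). Replicate numbers were not taken to pair the treatments. With the replicate block 0 genes were called in either tissue, with 256 and 858 genes at an unadjusted p under 0.05 in hippocampus and cortex. With the animal as a replicate block 2888 genes and 20 members were called between the tissues. Npas4, Egr2, Inhba and Atf3 rest on few reads per library, which limits their precision.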
